A study of Mus musculus with 4 samples.

Results

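The genes of the respiratory chain and ATP synthase were followed in MC38 tumours from mice treated with vanoxerine or with saline. Members were all protein-coding genes whose symbol starts with Nduf, Sdha to Sdhd, Uqcr, Cox4 to Cox8, Atp5, mt-Nd, mt-Co, mt-Cyt or mt-Atp. This rule took 111 of 21805 protein-coding genes, under 110 symbols, because Atp5o has a second gene ID. Of these, 98 are encoded in the nucleus and 13 in the mitochondrial genome. The rule uses names alone and no measured value.

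MC38 is a mouse colon adenocarcinoma cell line, here injected into mice and recovered as a primary tumour. The treated mice received vanoxerine, an inhibitor of the dopamine transporter, intraperitoneally at 25 mg/kg once a day for 10 injections, and the control mice received saline by the same route and number of injections. Each group had 2 libraries of bulk RNA, with 70564325 and 67289273 estimated reads for vanoxerine and 75748162 and 70274527 for saline. The labels give no mouse strain, sex or age. Nor do they state whether different animals gave the 2 libraries of each group, so the spread behind the p-values may be a technical one.

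The respiratory chain passes electrons from NADH (complex I) and succinate (complex II) through ubiquinone, complex III and cytochrome c to oxygen at complex IV. Complexes I, III and IV pump protons across the inner mitochondrial membrane, and complex V, the ATP synthase, uses the gradient to make ATP. Complexes I, III, IV and V are assembled from subunits of both genomes, whereas complex II is wholly nuclear-encoded and is also an enzyme of the tricarboxylic acid cycle. The mitochondrial genes are transcribed as long precursors, mt-Nd6 from one strand and the other 12 protein-coding genes from the opposite strand.

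Most nuclear-encoded members had lower read counts in the vanoxerine tumours, complex II had higher ones, and 2 of the 13 mitochondrial genes, mt-Nd5 and mt-Nd6, rose. Of 96 nuclear members tested, 47 fell and 5 rose by edgeR's quasi-likelihood test at a Benjamini-Hochberg adjusted p under 0.05, over 18758 genes. Among all genes tested, 15.9% fell and 21.0% rose in the same fit, 36.9% in either direction. The median log2 fold change (vanoxerine over saline, of CPM, read counts scaled to library size) was -0.27 over the nuclear members and -0.01 over all genes. In 71 of the 96 both vanoxerine libraries lay below both saline libraries, and in 11 both lay above, against 34.9% and 35.8% of all genes. Cox8c, a testis isoform, and the second Atp5o ID had no read in any library and were not tested. The counts depend on the libraries used, for members and for all genes. Without vanoxerine replicate 1, 20 nuclear members fell and 1 rose, where 5.16% of all genes fell and 10.8% rose (15.9% in either direction). Without vanoxerine replicate 2, 18 fell and 1 rose, where 4.87% and 10.3% of all genes did (15.2% in either direction). Without saline replicate 1, 64 fell and 9 rose, where 21.4% and 27.4% of all genes did (48.8% in either direction). Without saline replicate 2, 53 fell and 8 rose, where 20.9% and 26.8% of all genes did (47.7% in either direction).

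Log2 fold changes varied with transcript length. Among all genes, the median log2 fold change ran from -0.46 in the shortest of 20 bins of effective transcript length (median 153 bases) to 0.24 in the longest (median 6545 bases). Respiratory chain messages are short, and 71 of the 96 nuclear members lay in the 4 shortest bins, up to 771 bases. There the members' median log2 fold change was -0.31 and that of all 3752 genes was -0.30. In those 4 bins 41 members fell and 1 rose, against 22.4% and 6.34% of all genes. The correlation of log2 fold change with log2 length was r = 0.33 (Spearman 0.35) over the 96 members and r = 0.16 (Spearman 0.24) over all genes, across genes of the same 4 libraries. Length also moved between the 2 saline libraries, where the median difference in log2 CPM of replicate 2 minus replicate 1 was 0.08 in the shortest bin, -0.05 in the longest and 0.11 over the members. Between the 2 vanoxerine libraries the same differences were 0.00, 0.02 and -0.01. The part of length in the results was tested only as far as a refit goes. When each library was scaled by its own trend over length, 14 nuclear members fell and 19 rose, with a median log2 fold change of 0.02, against 15.2% and 18.3% of all genes (33.4% in either direction).

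**Figure D1:**
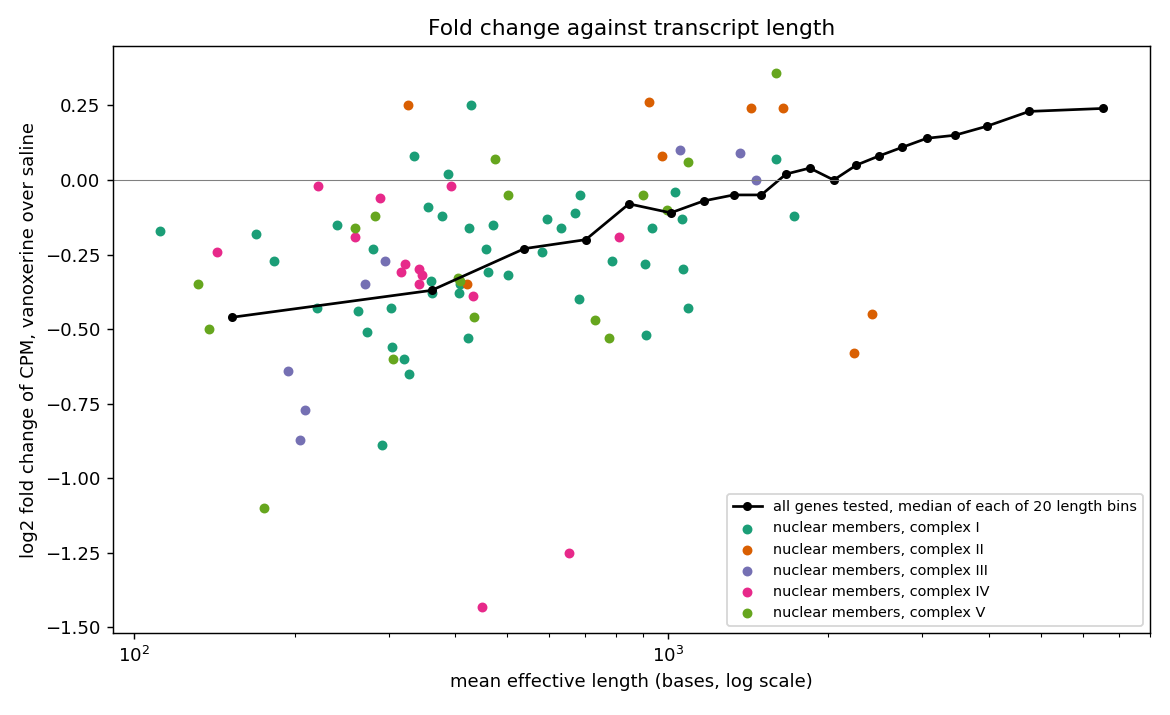
Log2 fold change of CPM (vanoxerine over saline, y axis) against mean effective transcript length in bases (log x axis) for the 91 nuclear members with a mean of at least 2 CPM. The black line joins the medians of all genes in 20 length bins, from -0.46 to 0.24, and most members lie at its short, low end.

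A smaller group of members was called in the same direction on 3 of the scales tried. These were CPM, CPM with the length trend removed, and log2(TPM + 1). TPM is a read count scaled to transcript length and library total. Of the nuclear members, 10 fell in all 3 fits and 4 rose in all 3, against 3.52% and 14.1% of all genes. The 10 were Uqcrq, Uqcr10, Uqcr11, Atp5e, Atp5d, Atp5j2, Ndufa2, Ndufb2, Cox6a2 and Ndufa4l2. The 4 were Sdhb, Sdhc, Sdhaf2 and Atp5a1. With upper-quartile factors Sdhb, Sdhc and Sdhaf2 were not called, at log2 fold changes of 0.12, 0.12 and 0.10. With an offset for average transcript length Sdhc and Sdhaf2 were not called, at 0.36 and 0.24. Atp5a1 and the 10 that fell were called in both of these fits. On the log2(TPM + 1) scale alone, 21 nuclear members fell and 12 rose, where 4.64% of all genes fell and 21.8% rose (26.5% in either direction). This scale raised the median over all genes to 0.13.

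**Figure D2:**
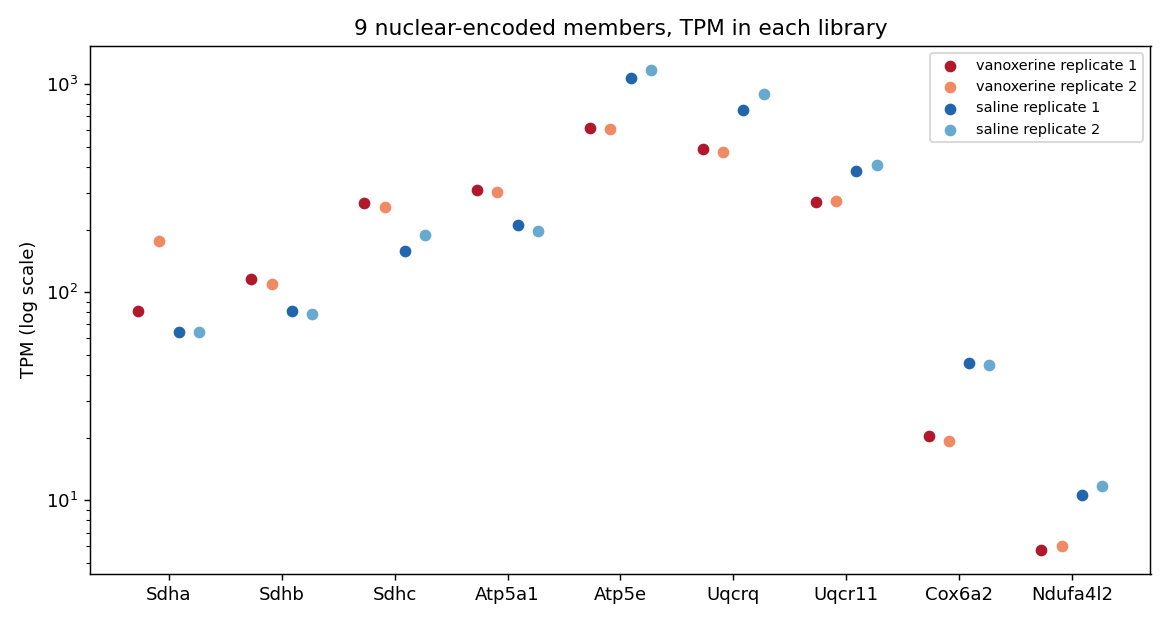
TPM (log y axis) of 9 nuclear-encoded members in the 2 vanoxerine and 2 saline libraries, 1 point per library. Sdhb, Sdhc and Atp5a1 are higher in both vanoxerine libraries, Atp5e, Uqcrq, Uqcr11, Cox6a2 and Ndufa4l2 are lower in both, and Sdha reads 81.0 and 177 TPM in the 2 vanoxerine libraries.

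The subunits of complex II, succinate dehydrogenase, had calls in the higher direction alone. Its 4 subunits were each higher in both vanoxerine libraries, and 3 of the 4 rose, against 35.8% and 21.0% of all genes. Sdhb, the iron-sulphur subunit (chr4:140961203-140979193, plus strand, GRCm38), had 116 and 111 CPM in vanoxerine tumours, against 94.3 and 95.1 CPM in saline tumours. Its log2 fold change was 0.26 ± 0.049 (SE; edgeR's quasi-likelihood test, Benjamini-Hochberg adjusted p = 0.0096). Sdha, the flavoprotein that oxidises succinate (chr13:74322254-74350280, minus strand), had 181 and 173 CPM in vanoxerine and 146 and 154 CPM in saline tumours. This is a log2 fold change of 0.24 ± 0.052 (edgeR's quasi-likelihood test, Benjamini-Hochberg adjusted p = 0.0149). In TPM the 2 vanoxerine libraries disagreed on Sdha, at 81.0 and 177 TPM against 64.3 and 64.4 TPM in saline, and the gene was not called on the log2(TPM + 1) scale.

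Sdhc and Sdhd form the membrane anchor of complex II, where ubiquinone is reduced. Sdhc (chr1:171127165-171150603, minus strand) had 88.6 and 89.4 CPM in vanoxerine and 71.0 and 78.6 CPM in saline tumours, a log2 fold change of 0.25 ± 0.063 (edgeR's quasi-likelihood test, Benjamini-Hochberg adjusted p = 0.0248). Sdhd had 131 and 134 CPM in vanoxerine and 124 and 127 CPM in saline tumours, and its log2 fold change of 0.08 ± 0.046 was not called. With the length trend removed all 4 rose, where 18.3% of all genes did. Their log2 fold changes were then 0.35 for Sdhb, 0.22 for Sdha, 0.60 for Sdhc and 0.17 for Sdhd. The summed TPM of the 4 subunits was 0.059% and 0.067% of all TPM in the vanoxerine libraries, against 0.0404% and 0.0433% in the saline libraries. These differences are small, and 2 changes of processing end the calls. Upper-quartile scaling, which lowers the median of all genes to -0.14, left none of the 4 called, at log2 fold changes of 0.12 for Sdhb, 0.11 for Sdha and 0.12 for Sdhc. Without either vanoxerine library none of the 4 was called.

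The assembly factors of complex II divided. Sdhaf2, which helps attach the flavin to Sdha, had 45.2 and 43.8 CPM in vanoxerine and 37.6 and 38.0 CPM in saline tumours, a log2 fold change of 0.24 ± 0.058 (edgeR's quasi-likelihood test, Benjamini-Hochberg adjusted p = 0.0239). Sdhaf1, which acts in the iron-sulphur maturation of Sdhb, had 8.58 and 8.09 CPM against 11.9 and 13 CPM in saline, and fell by 0.58 on the log2 scale (adjusted p = 0.0106 by the same test). Without either vanoxerine library neither was called. Sdhaf2 shares 94 exonic bases with Cpsf7, and Sdhaf1 shares 1733 with E130208F15Rik, both on the opposite strand. No source used here states how strand was handled in counting, so reads of such partners cannot be told apart. Sdhaf3 and Sdhaf4 were not called, at log2 fold changes of -0.45 and -0.35.

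Complex I, NADH dehydrogenase, is the largest complex, with 36 nuclear structural subunits here. Of these 18 fell and the other 18 were not called, where 15.9% of all genes fell and 21.0% rose. The median log2 fold change of the 36 was -0.25. With the length trend removed, 4 fell and 4 rose, with a median of 0.00, where 15.2% and 18.3% of all genes did. With the mitochondrial subunits, complex I had 20 calls, against 12 without vanoxerine replicate 1, 10 without vanoxerine replicate 2 and 36 without saline replicate 1, where 36.9%, 15.9%, 15.2% and 48.8% of all genes were called. The 4 nuclear subunits with the smallest p are accessory subunits, which surround the catalytic core. Ndufa7 had 72.6 and 73.1 CPM in vanoxerine and 99.2 and 98.8 CPM in saline tumours, and fell by 0.44 on the log2 scale (edgeR's quasi-likelihood test, Benjamini-Hochberg adjusted p = 0.000968). Ndufa2 had 59.4 and 58.0 CPM, against 85.7 and 99.0 CPM in saline, and fell by 0.65 (adjusted p = 0.00153 by the same test). Of the other two, Ndufa11 fell by 0.43 and Ndufa6 by 0.51. Among these 4, Ndufa2 alone also fell in the fit without the length trend, at -0.30. Ndufb2, a membrane-arm accessory subunit chosen after its values were seen, had the largest fall of the complex, with 33.8 and 29.9 CPM in vanoxerine and 52.7 and 65.5 CPM in saline tumours. This is a log2 fold change of -0.89 in CPM and -0.54 with the length trend removed.

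Core subunits of complex I that carry the flavin or iron-sulphur clusters, or lie beside them, include Ndufv1, Ndufv2, Ndufs1, Ndufs3, Ndufs7 and Ndufs8, also named after their values were seen. Ndufv1 and Ndufs3 fell, at log2 fold changes of -0.28 and -0.38. Ndufs1, the subunit with the most clusters, had 93.5 and 96.9 CPM in vanoxerine and 92.0 and 89.8 CPM in saline tumours, a log2 fold change of 0.07 that was not called. Ndufv2, Ndufs7 and Ndufs8 lay between -0.13 and -0.05 and were not called. Among the named assembly factors Ndufaf5 fell by 0.52 and Ndufaf2 by 0.53. Ndufaf1, at -0.30 and an adjusted p of 0.0502 by edgeR's quasi-likelihood test, was the first member past the threshold, and Atp5s (complex V factor B), at -0.53 and 0.0419, was the last member inside it.

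**Figure D3:**
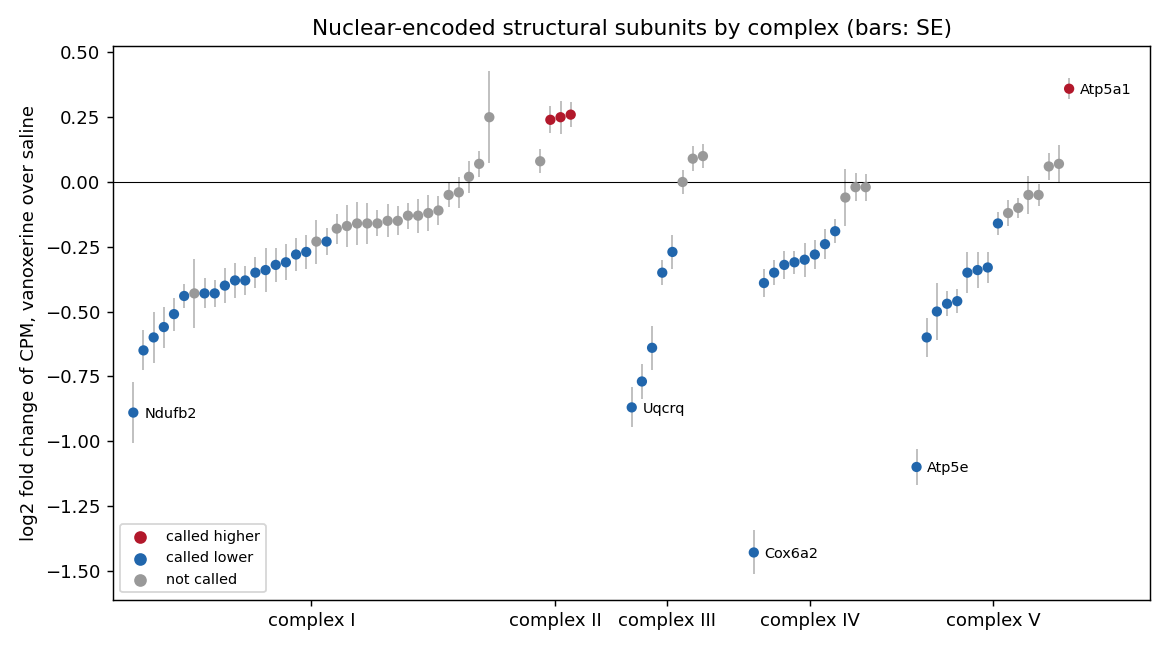
Log2 fold change of CPM (vanoxerine over saline, y axis) of the 76 nuclear structural subunits with a mean of at least 2 CPM, ordered by size within complexes I to V. Points are genes, bars are SE, and colour gives the call, with red points in complex II and at Atp5a1 and blue points in complexes I, III, IV and V.

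Complex III, the cytochrome bc1 complex, split by subunit type, which here goes with transcript length. Of 8 nuclear subunits 5 fell and the other 3 were not called, where 15.9% of all genes fell and 21.0% rose. With the length trend removed 3 of the 8 fell and 1 rose, with a median log2 fold change of 0.02. The 5 that fell in CPM were the small supernumerary subunits, with effective lengths of 194 to 295 bases. The other 3 had 1056 to 1466 bases. With mt-Cytb counted too, 3 subunits of the complex were called without either vanoxerine library, where 15.9% and 15.2% of all genes were called. Uqcrq, which lies in the membrane part (chr11:53427922-53430831, minus strand), had 113 and 111 CPM in vanoxerine and 190 and 220 CPM in saline tumours. Its log2 fold change was -0.87 ± 0.077 (edgeR's quasi-likelihood test, Benjamini-Hochberg adjusted p = 0.000516), and -0.41 with the length trend removed. Uqcr11 had 61.3 and 63.3 CPM against 100 and 112 CPM in saline, a log2 fold change of -0.77, and -0.31 with the trend removed. Uqcr10 had 91.4 and 89.3 CPM against 129 and 152 CPM in saline, with -0.64 and -0.17. In each of these 3 genes the groups did not overlap. Uqcrb and Uqcrh also fell in CPM, by 0.35 and 0.27, but had log2 fold changes of 0.00 and 0.09 with the trend removed and were not called there.

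The larger proteins of complex III were not called in CPM. Uqcrc1 and Uqcrc2, the core proteins, and Uqcrfs1, the Rieske iron-sulphur protein, had log2 fold changes of 0.09, 0.00 and 0.10. On the log2(TPM + 1) scale these genes were called higher, at 0.42, 0.31 and 0.33 (adjusted p = 0.0211, 0.023 and 0.0158 by limma). On that scale 21.8% of all genes rose and 4.64% fell. Uqcrfs1 had 95.2 and 97.2 CPM in vanoxerine and 89.9 and 90.0 CPM in saline tumours, and rose in the fit without the length trend, at 0.19. The summed TPM of the 8 genes was 0.224% and 0.221% of all TPM in vanoxerine, against 0.264% and 0.295% in saline libraries.

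Complex IV, cytochrome c oxidase, reduces oxygen. Of its 17 nuclear subunits tested, 9 fell and the other 8 were not called, where 15.9% of all genes fell and 21.0% rose. The summed TPM of the complex overlapped between groups, at 0.545% and 0.529% in vanoxerine and 0.536% and 0.566% in saline. With its mitochondrial subunits it had 9 calls, against 2 without either vanoxerine library (15.9% and 15.2% of all genes called) and 14 without saline replicate 1 (48.8%). With the length trend removed, 1 of the 17 nuclear subunits fell and 4 rose, with a median log2 fold change of 0.07. Among all genes 15.2% fell and 18.3% rose in that fit. In CPM Cox6a2 had the largest fold change of the members called. This heart and skeletal muscle isoform of subunit 6a (chr7:128205435-128206387, minus strand) had 9.83 and 9.44 CPM in vanoxerine and 25.8 and 26.1 CPM in saline tumours. Its log2 fold change was -1.43 ± 0.085 (edgeR's quasi-likelihood test, Benjamini-Hochberg adjusted p = 0.000123), and it was between -1.45 and -1.39 with any library left out. Per length, its TPM was 4.18% and 4.03% of that of Cox6a1, the ubiquitous isoform, in vanoxerine libraries, against 9.02% and 8.54% in saline libraries. Skeletal muscle markers were mixed. Of 8 markers 3 fell (Acta1, Mylpf, Myh1) and 1 rose (Myh4), where 15.9% of all genes fell and 21.0% rose. Tnnt3, Mb, Tnnc2 and Ckm were not called, and with the length trend removed 2 markers fell and 0 rose. Summed levels were 36.0 and 33.7 CPM in vanoxerine and 50.5 and 49.6 CPM in saline. Of these Acta1 made up 13.6 and 11.8 CPM in vanoxerine and 24.0 and 21.2 CPM in saline. The part of the markers in the Cox6a2 result was not tested. Cox6a2 also shares 70 exonic bases with Itgad on the opposite strand, which held 87 to 96 reads in vanoxerine and 69 to 92 reads in saline libraries.

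Ndufa4l2, a paralog of the complex IV subunit Ndufa4 that is known as a target of hypoxia-inducible factor, also fell. It had 4.68 and 3.38 CPM in vanoxerine and 9.88 and 9.33 CPM in saline tumours, a log2 fold change of -1.25 ± 0.191 (edgeR's quasi-likelihood test, Benjamini-Hochberg adjusted p = 0.00419). Its TPM was 1.77% and 1.80% of that of Ndufa4 in vanoxerine, against 2.79% and 3.23% in saline. The gene shares 32 exonic bases with Shmt2 on the opposite strand. Shmt2, which holds far more reads, had 18025 and 17351 in vanoxerine and 25251 and 24746 in saline libraries.

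The remaining tissue-restricted isoforms of complex IV were low. Cox4i2, linked to lung and to hypoxia, had 0.982 and 0.743 CPM in vanoxerine and 0.445 and 0.0421 CPM in saline tumours, and was not called (edgeR's quasi-likelihood test, adjusted p = 0.203). Cox8b, of heart and skeletal muscle, had 0.0289 and 0.0607 CPM against 0.222 and 0.281 CPM in saline and was not called (adjusted p = 0.0966 by the same test). The testis isoforms Cox6b2 and Cox7b2 stayed under 1 CPM in every library. Cox7a1, another heart and muscle isoform, had 1.57 and 1.65 CPM in vanoxerine and 1.70 and 2.16 CPM in saline tumours, and none of these 3 was called.

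Among the ubiquitous subunits of complex IV the direction depended on the scale. Cox4i1, which helps regulate the enzyme, had 374 and 372 CPM in vanoxerine and 467 and 512 CPM in saline tumours, and its log2 fold change was -0.39 in CPM (adjusted p = 0.00276 by edgeR's quasi-likelihood test) and -0.04 with the length trend removed. Cox6a1, Cox7a2, Cox8a and Ndufa4 likewise fell in CPM, by 0.32, 0.35, 0.28 and 0.31, and lay between 0.00 and 0.07 with the trend removed. Cox7b, an accessory subunit with an effective length of 143 bases, changed sign. It had 124 and 118 CPM in vanoxerine and 138 and 148 CPM in saline tumours, called lower at -0.24 in CPM, and called higher at 0.22 with the trend removed (adjusted p = 0.0205 and 0.0186 by edgeR's quasi-likelihood test). Cox6c and, in complex V, Atp5l were also called in opposite directions by these 2 fits, at -0.19 and 0.16 for Cox6c and at -0.16 and 0.19 for Atp5l. Cox6b1, which joins the dimer, and Cox5a were not called in CPM, at -0.06 and -0.02.

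Complex V fell in 9 of its 16 nuclear structural subunits tested, and 1 rose, where 15.9% of all genes fell and 21.0% rose. With its mitochondrial subunits it had 10 calls, against 5 without either vanoxerine library (15.9% and 15.2% of all genes called) and 16 without saline replicate 1 (48.8%). With the length trend removed, 3 of the 16 nuclear subunits fell and 4 rose, with a median log2 fold change of 0.03. Among all genes 15.2% fell and 18.3% rose in that fit. The fall in CPM was largest in Atp5e, the epsilon subunit of the central stalk (chr2:174461072-174464105, minus strand). Atp5e had 118 and 116 CPM in vanoxerine and 236 and 268 CPM in saline tumours. Its log2 fold change was -1.10 ± 0.070 (edgeR's quasi-likelihood test, Benjamini-Hochberg adjusted p = 0.000156), and -0.64 with the length trend removed. Atp5d, the delta subunit beside it in the stalk, had 195 and 203 CPM against 269 and 282 CPM in saline, with log2 fold changes of -0.47 and -0.29 on the same 2 scales. Atp5j2, the f subunit of the membrane part, had 134 and 132 CPM against 187 and 216 CPM in saline, with -0.60 and -0.24. Atp5c1, the gamma subunit that completes the stalk, had 222 and 219 CPM in vanoxerine and 229 and 229 CPM in saline tumours and was not called, at -0.05.

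The catalytic head is a hexamer of alpha and beta subunits. Atp5a1, the alpha subunit, had 529 and 537 CPM in vanoxerine and 408 and 423 CPM in saline tumours, a log2 fold change of 0.36 ± 0.041 (edgeR's quasi-likelihood test, Benjamini-Hochberg adjusted p = 0.00139). It was called with every library left out, at 0.33 to 0.40. Atp5b, the beta subunit and the highest nuclear member in CPM, had 1040 in each vanoxerine library and 1090 and 1150 in the saline libraries, a log2 fold change of -0.10 that was not called. It was called lower on the log2(TPM + 1) scale, at -0.21 (adjusted p = 0.0471 by limma), and with an offset for average transcript length, at -0.45 (adjusted p = 0.00205 by edgeR's quasi-likelihood test). The authors' deposited table lists Atp5b as lower, at -0.44. With the length trend removed its log2 fold change was -0.01. Atp5a1 shares 129 exonic bases with Haus1 on the opposite strand, whose reads, 1967 and 1890 in vanoxerine and 2709 and 2817 in saline, ran the other way. Atp5g1, Atp5g2 and Atp5g3 encode the same mature c-ring protein. Atp5g1 fell, with 129 and 125 CPM in vanoxerine and 173 and 175 CPM in saline tumours (log2 fold change -0.46), while Atp5g2 and Atp5g3 were not called, at -0.05 and 0.07. Per length, Atp5g1 was at 55.9% and 57.6% of the TPM of Atp5g3 in vanoxerine libraries, against 79.0% and 88.1% in saline libraries.

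Promoters are shown for Sdha, which rose in CPM, and for 2 members that fell in CPM, Atp5e and Cox6a1. Of these genes, Atp5e alone was called in the same direction on the CPM, trend-removed and log2(TPM + 1) scales. Many nuclear respiratory genes are known to be driven by nuclear respiratory factor 1 (NRF1) and by the ETS factor GABP. RefSeq windows on GRCm38.p6, 250 bases before to 50 after the start, were matched for 80 of 97 nuclear members with a symbol of their own. Those not matched included Ndufaf6, Ndufa2, Ndufb9, Ndufs1, Sdhc, Uqcrb, Uqcrc2, Uqcrq, Ndufa4l2, Cox4i1, Cox4i2, Cox6a2, Cox6c, Cox8c, Atp5a1 and Atp5mpl. The 250 bases before the start are printed 5′ to 3′ along the gene's strand, with matches to the NRF1 consensus or to CCGGAAG (ETS) on either strand in capitals, and the 2 motifs do not overlap in these windows. They lie at chr13:74350241-74350490 (minus) for Sdha, chr2:174464102-174464351 (minus) for Atp5e and chr5:115348959-115349208 (minus) for Cox6a1.
Sdha: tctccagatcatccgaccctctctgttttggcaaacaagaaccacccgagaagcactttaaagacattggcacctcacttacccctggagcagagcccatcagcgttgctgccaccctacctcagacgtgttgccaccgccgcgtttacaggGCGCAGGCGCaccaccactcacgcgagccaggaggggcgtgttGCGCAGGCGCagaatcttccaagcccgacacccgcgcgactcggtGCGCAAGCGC
Atp5e: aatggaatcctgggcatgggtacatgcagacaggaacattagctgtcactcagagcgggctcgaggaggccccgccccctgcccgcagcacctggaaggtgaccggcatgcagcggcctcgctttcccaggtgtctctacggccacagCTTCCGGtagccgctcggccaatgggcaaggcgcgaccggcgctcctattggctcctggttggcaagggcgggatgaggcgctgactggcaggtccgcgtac
Cox6a1: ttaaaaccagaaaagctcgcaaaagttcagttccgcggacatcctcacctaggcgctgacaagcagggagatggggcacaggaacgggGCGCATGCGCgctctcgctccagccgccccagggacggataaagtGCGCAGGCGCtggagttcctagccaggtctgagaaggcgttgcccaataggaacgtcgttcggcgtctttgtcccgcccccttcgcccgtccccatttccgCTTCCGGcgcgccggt
The Sdha window holds 3 NRF1 matches and no ETS match, Atp5e holds 1 ETS match, and Cox6a1 holds 2 NRF1 matches and 1 ETS match. Windows of Sdhb, Atp5d and Uqcr11 were also searched but are not printed. In the 250 bases before the start, Sdhb and Atp5d held no match to either motif and Uqcr11 held 1 ETS match. An NRF1 match was found in 25.0% of the 80 members' full windows and in 4.78% of all 27025 windows, and an ETS match in 25.0% and 9.12%. Among members that fell, 8 of 38 held an NRF1 match and 11 of 38 an ETS match, and among the 3 matched members that rose, 1 and 2 did. A match is a run of letters and not a measured binding site.

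Of the 13 mitochondrial genes 2 rose (15.4%) and 0 fell by edgeR's quasi-likelihood test, where 21.0% of all genes rose and 15.9% fell. At an unadjusted p under 0.05 edgeR's test had 1 lower, mt-Atp6, and DESeq2 and limma-voom called 0 lower and 2 higher at the adjusted threshold. At an adjusted p under 0.1 by edgeR's test mt-Atp6 counted as lower, where 20.5% of all genes fell and 24.6% rose (45.1% in either direction). The median log2 fold change was 0.18, but 0.43 without saline replicate 1, -0.01 without saline replicate 2 and 0.09 without vanoxerine replicate 1. mt-Nd5 and mt-Nd6, complex I subunits of the membrane arm, are neighbours that are read from opposite strands. mt-Nd5 (chrM:11742-13565, plus strand) had 822 and 796 CPM in vanoxerine and 527 and 432 CPM in saline tumours. The gene's log2 fold change was 0.75 ± 0.092 (edgeR's quasi-likelihood test, Benjamini-Hochberg adjusted p = 0.00173). mt-Nd6 (chrM:13552-14070, minus strand) had 13.6 and 13.2 CPM against 7.19 and 6.37 CPM in saline, a log2 fold change of 0.98 ± 0.118 (adjusted p = 0.00168 by the same test). Both were called with any library left out, at 0.63 to 0.90 for mt-Nd5 and 0.91 to 1.07 for mt-Nd6. Their exons share 14 bases. Reads of mt-Nd6 cannot be told apart from reads of the opposite strand there or from unannotated RNA along it, since no strand setting is given. The calls of mt-Nd5 and mt-Nd6 may therefore not be separate results.

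The remaining 11 mitochondrial genes were not called, and the 2 saline libraries differed in all of them. Saline replicate 1 exceeded replicate 2 by 1.13-fold (mt-Nd6) to 5.07-fold (mt-Co3) over the 13 genes, against 0.834 to 1.59 for vanoxerine replicate 1 over 2. mt-Co1, the catalytic subunit of complex IV and the highest of all members, had 18100 CPM in each vanoxerine library and 23400 and 17900 CPM in the saline libraries. mt-Cytb, the only mitochondrial subunit of complex III, had 2360 and 2270 CPM in vanoxerine and 2300 and 1990 CPM in saline tumours. The groups overlap for both genes, which were not called, at log2 fold changes of -0.19 and 0.11. In complex I, mt-Nd1 had 1440 and 1360 CPM in vanoxerine and 1320 and 913 CPM in saline tumours, a log2 fold change of 0.32. mt-Nd2 and mt-Nd4 had 0.18 and 0.19, with overlapping groups. Without saline replicate 1, 11 of the 13 were called higher and 1 lower, where 27.4% and 21.4% of all genes were. Without saline replicate 2, 4 were called higher and 5 lower, where 26.8% and 20.9% of all genes were.

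Nuclear copies take part of the mitochondrial reads. A stretch of chromosome 1, which includes Gm28437 at chr1:24613189-24613971 on the minus strand, carries pseudogenes whose transcripts match mitochondrial genes almost base for base, and Salmon divides reads that fit both. Gm28437 matches mt-Co3 without a difference over 783 bases, Gm28661 matches mt-Co2 over 681, Gm10925 matches mt-Atp6 over 678 and Gm10222 matches mt-Nd4l over 294. mt-Nd3 differs from Gm28438 at 1 base over 345 bases. mt-Co1 differs from Gm29216 at 1 base over 483 bases, and this copy covers only part of the gene. The differing bases are in capitals in these 60-base stretches of the GENCODE transcripts, and the start of mt-Co3 shows what an identical pair looks like.
mt-Nd3: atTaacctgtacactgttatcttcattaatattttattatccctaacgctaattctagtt
Gm28438: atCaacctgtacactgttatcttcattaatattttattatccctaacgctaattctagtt
mt-Co1: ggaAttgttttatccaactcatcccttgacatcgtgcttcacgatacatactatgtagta
Gm29216: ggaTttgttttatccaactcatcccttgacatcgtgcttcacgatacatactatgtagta
mt-Co3: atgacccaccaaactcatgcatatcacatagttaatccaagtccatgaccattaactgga
Gm28437: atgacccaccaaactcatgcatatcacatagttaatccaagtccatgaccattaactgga
The differences are T3C in Gm28438 and A1066T in Gm29216, counted from 1 at the first base of the mitochondrial transcript. Of the reads of mt-Co3 and Gm28437 together, the copy held 90.5% and 91.1% in vanoxerine and 89.6% and 96.7% in saline libraries. For mt-Co1 the partial copy Gm29216 held 7.92% and 7.28% in vanoxerine and 12.1% and 14.7% in saline libraries. For mt-Nd5 and mt-Nd6, the pair that rose, near-identical copies held at most 3 reads in any library or were not found.

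With the reads of all near-identical copies added to their members, 3 mitochondrial genes rose and 0 fell by edgeR's test (1 lower at an unadjusted p under 0.05), where 21.0% and 16.0% of all genes did (37.0% in either direction). The gene gained was mt-Nd4l, a small complex I subunit, with 144 and 147 CPM in vanoxerine and 112 and 82.5 CPM in saline tumours (log2 fold change 0.58, adjusted p = 0.0198 by edgeR's quasi-likelihood test). mt-Co3 then had 7200 and 7170 CPM in vanoxerine and 11500 and 7030 CPM in saline tumours, so its groups still overlapped. mt-Atp6, a subunit of the proton channel of complex V, had 456 and 287 CPM in vanoxerine and 937 and 468 CPM in saline tumours before the copies were added, and 5340 and 5090 CPM against 7370 and 4410 CPM after. On the log2 scale its fold change was -0.92 before and -0.18 after, and it was not called in either fit.

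**Figure D4:**
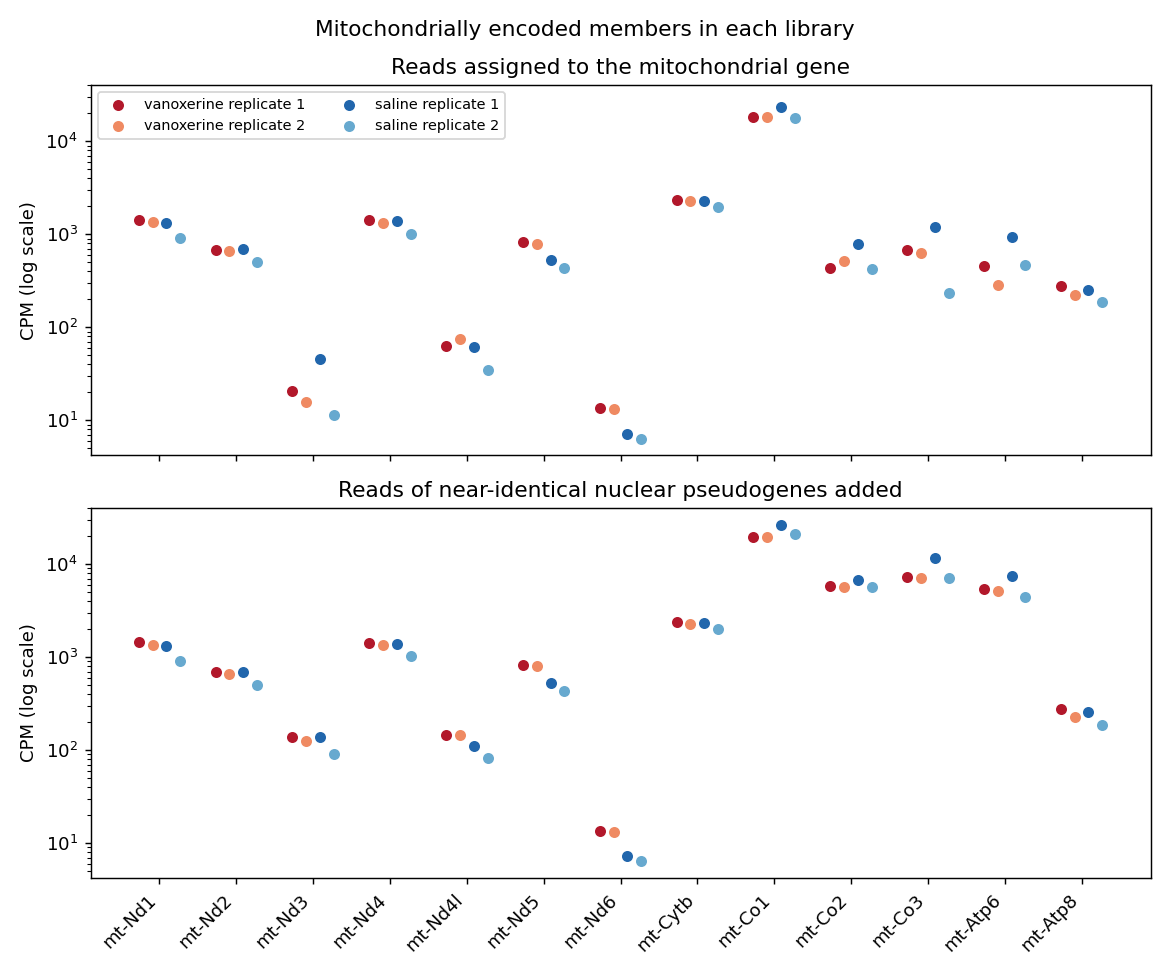
CPM (log y axis) of the 13 mitochondrially encoded members in each vanoxerine and saline library, 1 point per library, with reads of the gene alone (upper panel) and with reads of near-identical nuclear pseudogenes added (lower panel). mt-Nd5 and mt-Nd6 are higher in both vanoxerine libraries in both panels, and saline replicate 1 lies above saline replicate 2 for every gene.

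The balance between the genomes depended on the unit. Nuclear members held 2.00% and 1.96% of all TPM in vanoxerine and 2.10% and 2.20% in saline libraries, so the groups did not overlap, and mitochondrial members held 5.52% and 4.90% in vanoxerine and 4.98% and 3.51% in saline libraries. An exact two-sided permutation test of 2 libraries against 2 cannot go below p = 0.333, and no other test of the shares was run. The mitochondrial-to-nuclear ratio of TPM was 2.76 and 2.50 in vanoxerine and 2.37 and 1.60 in saline libraries. With near-identical copies added it was 4.68 and 4.38 in vanoxerine and 4.51 and 3.32 in saline libraries, and the groups overlapped. By reads the same ratio was 2.80 and 2.76 in vanoxerine and 3.08 and 2.13 in saline libraries, and the groups overlapped. mt-Atp8 alone made up 52.0% and 47.1% of the mitochondrial TPM in vanoxerine and 44.9% and 45.4% in saline libraries, because its effective length is 9 bases, which makes its TPM unreliable.

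Other nuclear genes of the mitochondrion moved in part like the members. Beside these counts, 15.9% of all genes fell and 21.0% rose in CPM, and 15.2% and 18.3% did with the length trend removed. Of 78 mitochondrial ribosomal proteins, 49 fell and the other 29 were not called in CPM, with a median log2 fold change of -0.30, and with the length trend removed 23 fell and 4 rose, with a median of -0.10. Mrpl12, which also binds the mitochondrial RNA polymerase, had 92.9 and 89.8 CPM in vanoxerine and 141 and 143 CPM in saline tumours, and fell by 0.63 in CPM and by 0.54 with the trend removed. Of 6 complex III assembly factors 3 fell, led by Uqcc2, with 54.1 and 54.4 CPM in vanoxerine and 116 and 131 CPM in saline tumours (log2 fold change -1.19). Of 23 complex IV assembly factors 11 fell and 1, Coa5, rose, with 129 CPM in each vanoxerine library and 76.2 and 67.3 CPM in saline. Of 10 other complex I assembly factors 2 fell (Timmdc1 and Ecsit) and 2 rose, among them Tmem126b. Of 3 complex V assembly factors Atpaf2 fell. With the length trend removed, 3 of the 23 complex IV factors fell and 2 rose, and their median log2 fold change was 0.02 instead of -0.30. In that fit 2 of the 6 complex III factors fell. Of the 10 complex I factors 2 fell and 2 rose there, and Atpaf2 fell.

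Genes around the chain were called in both directions, as were all genes, of which 15.9% fell and 21.0% rose in CPM. Of 23 electron carriers and further subunits 8 fell and 3 rose, among them Sqor, which feeds electrons from sulphide into ubiquinone, with 18.7 and 18.8 CPM in vanoxerine and 9.20 and 8.99 CPM in saline tumours (log2 fold change 1.04). Of 22 genes of the tricarboxylic acid cycle and its entry 4 fell, among them Pcx and Fh1, and 3 rose. Of 22 genes of mitochondrial mass and transport 9 fell and 4 rose. Ucp2, of the uncoupling protein family, was among those that rose, with 599 and 595 CPM in vanoxerine and 163 and 167 CPM in saline tumours (log2 fold change 1.86). Among 25 genes of mitochondrial transcription and biogenesis 6 fell, including Myc, Ssbp1 and Slirp, and 2 rose, Gabpa and Gabpb1, the subunits of GABP. Nrf1 itself was not called, with 37.8 and 38.5 CPM in vanoxerine and 36.4 and 36.1 CPM in saline tumours. With the length trend removed, 4 of the 23 electron carriers and further subunits fell and 4 rose, where 15.2% and 18.3% of all genes did. In that fit 3 genes of the tricarboxylic acid cycle and its entry fell and 1 rose. Of mitochondrial mass and transport 7 fell and 3 rose there, and of transcription and biogenesis 8 fell and 2 rose. The ribosomal RNAs mt-Rnr1 and mt-Rnr2 were not called in CPM, at 0.00 and 0.29, and rose with the length trend removed, at 0.23 and 0.39 (adjusted p = 0.048 and 0.043 by edgeR's quasi-likelihood test).

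Cell type markers differed between the groups beside all of these results, where 15.9% of all genes fell and 21.0% rose. All 8 macrophage markers rose, with summed levels of 3810 and 3840 CPM in vanoxerine and 789 and 820 CPM in saline tumours, and all 5 erythroid markers fell, with 4160 and 3920 CPM against 9390 and 9730 CPM. All 5 fibroblast markers fell, with 223 and 224 CPM against 437 and 441 CPM in saline, and of 4 epithelial markers 2 rose, with 33.3 and 35.3 CPM against 15.5 and 18.5 CPM. In bulk tumours fewer cells of a type and less RNA per cell cannot be told apart, and the part of the cell mixture in the members' values was not tested.

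The authors' deposited table, whose libraries are not named in it, gave like counts for the members. It lists 47 of the 96 nuclear members as lower and 3 as higher at an adjusted p under 0.05, with a median log2 fold change of -0.25, where 12.0% of its genes were lower and 16.4% higher. For mitochondrial members the authors' deposited table lists 3 of 13 as higher and 0 as lower. In the authors' deposited table Sdhb was higher at a log2 fold change of 0.26 (adjusted p = 0.00723) and Sdha was not called, at 0.36 (adjusted p = 0.281).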

How the data were processed

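Bulk RNA-seq of 4 MC38 tumour libraries was used, 2 vanoxerine and 2 saline. Per the labels' protocols, total RNA from snap-frozen tumours was made into TruSeq RNA v2 libraries for the NextSeq. The submitters' processing notes name fastp, Salmon 1.3.0, DESeq2 and the build GRCm38. Strandedness, read length and annotation release were not given in the sources used here. For 140992 transcripts the authors deposited, per library, effective lengths, TPM and estimated counts from Salmon. Per the file headers, the authors' deposited comparison table holds a base mean (a normalized signal), log2 fold changes, adjusted and raw p-values and standard errors. Its 4 per-library columns match no sample and were not used.

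Estimated counts were summed per gene with GENCODE M21 (139791 transcripts, 54115 genes, 99.56% to 99.63% of reads) and rounded. Genes were tested with edgeR 4.0.16 under R 4.3.3 (TMM factors, low-count filter at a minimum count of 10 and a minimum total of 15, quasi-likelihood test without a block), with Benjamini-Hochberg adjustment over 18758 genes and calls at 0.05. CPM uses the TMM-scaled library size, and SE comes from the test's F statistic. In the length-trend fit each gene's offset is its library's median deviation in 20 bins of effective length, so that the median of all genes in a bin is near 0. TPM was tested as log2(TPM + 1) with limma 3.58.1. Near-identical copies are pseudogenes that BLAST 2.17.0 aligned to a member at 95% identity or more over at least 80% of the shorter transcript. Each group has 2 libraries, and depth is 67289273 to 75748162 reads per library.

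Members, gene lists and tests were chosen with earlier results of these data known. Genes were named by this rule: all mitochondrial members, both genes of each isoform pair, up to 4 subunits per complex and direction and up to 3 assembly factors per direction with the smallest p among called members with groups apart and a log2 mean CPM of 1 or more, up to 3 called genes per other list with the smallest p, and the members on either side of the threshold. Other settings tried were 4 scalings (library totals, nuclear genes only, upper quartile, median of ratios), other filters and thresholds, DESeq2 1.42.0, limma-voom, a transcript length offset, TPM, protein-coding genes only, pseudogenes added, a replicate block, and each library left out. The sample titles number the replicates but do not say whether equal numbers pair the samples. Results for some genes are not reported here.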

Additional observations from a re-analysis of the deposited data

How the results depend on the processing

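Median-of-ratios factors, library totals, nuclear library sizes, a mean CPM of at least 1, DESeq2, limma-voom and named pseudogenes added kept every count by genome and by complex within 1.5 times. Of nuclear members, 5 rose and 47 fell. The number that rose was 1 with upper-quartile factors, 2 with the transcript length offset, 19 with the length trend removed and 12 on either TPM scale, and 1 to 9 with a library left out. The number that fell was 14 with the length trend removed and 21 on either TPM scale, and 18 to 64 with a library left out. Of mitochondrial members 2 to 11 rose (2 to 10 with copies added) and 0 to 5 fell (0 to 4 with copies added) with a library left out, and 1 fell without a low-count filter, at an adjusted p under 0.1, among protein-coding genes only, and with the replicate block. Calls in complex I were 34 with upper-quartile factors, 10 with the trend removed and 11 on either TPM scale, and 10 to 36 with a library left out. Complex II had 0 calls with upper-quartile factors, 1 with the transcript length offset and 0 to 4 with a library left out. Complex III had 3 to 7 and complex V 5 to 16 with a library left out. Complex IV had 5 with the trend removed and on either TPM scale, and 2 to 14 with a library left out. Among fits with a library left out, the lowest counts for nuclear members and for each complex are those without a vanoxerine library, when the other is assumed to vary like saline. The nuclear median of -0.27 was -0.40 with upper-quartile factors, 0.02 with the trend removed, -0.06 and -0.07 on the TPM scales and -0.34 to -0.19 with a library left out. The mitochondrial median of 0.18 was 0.45 on either TPM scale and -0.01 (without saline replicate 2) to 0.43 with a library left out.

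Upper-quartile factors move the median of all genes to -0.14, and log2(TPM + 1) and log2(TPM + 0.1) move it to 0.13 and 0.21. Nuclear members averaged 1.98% of TPM in vanoxerine and 2.15% in saline, and these were 2.37% and 2.70% over protein-coding genes, 0.937% and 1.12% of reads, 1.94% in vanoxerine for structural subunits, and 2.15% and 2.30% with copies added. Mitochondrial members averaged 5.21% and 4.25%, and these were 6.24% and 5.34%, 2.61% and 2.90% of reads, and 9.77% and 8.98% with copies. The ratio of 2.63 in vanoxerine and 1.98 in saline was 4.53 and 3.91 with copies and 2.61 in saline by reads. Of 52 called nuclear members, 15 had the other sign with the trend removed, 1 with the length offset and 4 on either TPM scale. Among genes named by the rule these were Cox6a1 (0.03), Cox8a (0.07), Cox7b (0.22), Ndufa4 (0.04) and Uqcrb (0.00) with the trend removed, Cox7b (0.11) and Atp5s (0.20 and 0.21) on the TPM scales and Atp5s (0.04) with the length offset. Of the mitochondrial genes, mt-Nd3 (0.68), mt-Co2 (0.16) and mt-Co3 (1.5) changed sign without saline replicate 1. Without saline replicate 2 these 3 were at -1.33, -0.72 and -0.83. The cause of these reversals was not tested. The correlation of replicate 1 deviations between groups was -0.0122 over 9867 genes. With 2 pairs it cannot show whether samples of equal replicate number were handled together. With the replicate block 5 nuclear members rose and 45 fell, and 3 mitochondrial members rose and 1 fell.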
